A study of Osmanthus fragrans with 6 samples.

Results

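Full bloom was sampled in both flowering rounds of the repeat-flowering sweet osmanthus Osmanthus fragrans var. semperflorens, and the petal libraries of those 2 full-blooming stages (full 2 from round 2 and full 1 from round 1) are compared here, 2 of the 6 libraries of the series. The other 4 libraries serve as context: the initial stage of round 2 (initial 2), and the initial, late full-blooming and abscission stages of round 1 (initial 1, late full 1 and abscission 1). All 6 came from untreated petals of trees that grew outdoors and were collected in September, on dates set by the flowering stage, and the age of the trees is not given in the sources used here. For each stage 5 replicates were pooled into 1 library, so each side of the comparison is 1 library, no spread between plants was measured, and the differences carry neither a test nor a p-value. The flowering round, the progress of a pool within full bloom, the collection date and the plants in a pool cannot be told apart with this design.

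Petals of sweet osmanthus owe their yellow to orange colour to carotenoids, which are made in plastids from isoprenoid precursors and are also cleaved by dioxygenases into scent compounds such as ionones. The series was set up around petal colour and carotenoid-related genes over flowering. As a petal ages it passes from expansion and pigment synthesis to senescence, when cell contents are broken down and reused, and then to abscission, when the cells at its base separate. The deposited table pairs its transcripts with no gene names, so the carotenoid genes were not analysed here, no role is given to any transcript, and at most 2 transcripts in each direction are named. The labelled tissue could not be set against defining markers for the same reason. In pooled tissue, fewer cells of a type and less RNA per cell cannot be told apart.

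The table holds estimated counts for 96596 transcripts assembled de novo. Full 2 held 19240153 counts and full 1 held 19797488, so full 2 had 97.2% of the depth of full 1. The 3 other deep libraries held 17826689 to 39119103 counts, and initial 1 held 107466, or 0.543% of the depth of full 1. In full 2 the 10 transcripts with most counts took 6.17% of all counts, and in full 1 they took 5.87%. Levels are CPM, counts scaled to a common total using the column sum, and each ratio was repeated with TMM scaling, which sets libraries level by the bulk of their transcripts. At least 50 counts over full 2 and full 1 together were required, which left 21652 transcripts (22.4% of all). These held 98.8% of the counts of either library.

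At full bloom 2286 of the 21652 transcripts (10.6%) differed at least 4-fold between round 2 and round 1 by CPM. Of these, 1116 (5.15% of those compared) were higher in full 2 and 1170 (5.40%) were lower. Within 2-fold of each other were 14891 transcripts (68.8%), and a further 4475 lay between 2-fold and 4-fold. The median log2 ratio of full 2 to full 1 was -0.21, with quartiles of -0.81 and 0.36. TMM scaling gave nearly the same number at least 4-fold different, 2238 (10.3%), but another balance: 1369 were higher (6.32%) and 869 lower (4.01%), or 61.2% higher against 48.8% by CPM. The median log2 ratio was then 0.07, so TMM moved all ratios up by more than 0.1 and the balance of higher and lower calls depends on the scaling.

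The threshold cut through a continuous range. The nearest transcript inside it differed 4.003-fold, and the nearest outside it just under 4-fold. Between 3-fold and 4-fold lay 1214 transcripts, and between 4-fold and 5-fold lay 624. The share that differed at least 4-fold was highest among shallow transcripts: 18.9% of the 7353 with at least 50 and under 200 counts over the pair, 8.49% of the 7412 from 200 to under 1000, 3.75% of the 6275 from 1000 to under 10000, and 4.90% of the 612 with 10000 or more. In the shallowest group 624 transcripts were higher in full 2 and 768 lower, a balance that TMM turned to 709 higher and 586 lower. Of the 30 called in the deepest group 28 were higher and 2 lower, and TMM gave 35 calls there, all 35 of them higher in full 2.

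The differences were then separated by the course of round 1, from full 1 to abscission 1. A transcript higher in full 2 was counted as following that course where abscission 1 was also at least 2-fold above full 1, and one lower in full 2 where abscission 1 was at least 2-fold below full 1. Both ratios share the library full 1, so a low or high count there pushes them the same way, and nothing is read from the size of the overlap. By CPM, 888 of the 1116 higher transcripts (79.6%) and 1103 of the 1170 lower ones (94.3%) followed, while 228 higher and 67 lower ones did not. Over all transcripts compared, abscission 1 was at least 2-fold above full 1 for 11.1% and at least 2-fold below it for 33.6%. With TMM, 1190 of 1369 higher transcripts (86.9%) and 777 of 869 lower ones (89.4%) followed, and those shares over all transcripts were 18.7% and 19.4%. The 2 scalings put 888 transcripts alike into higher and following, 135 into higher and not following, 777 into lower and following, and 31 into lower and not following. A further 154 differed at least 4-fold under both and followed under only 1 of them.

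**Figure D1:**
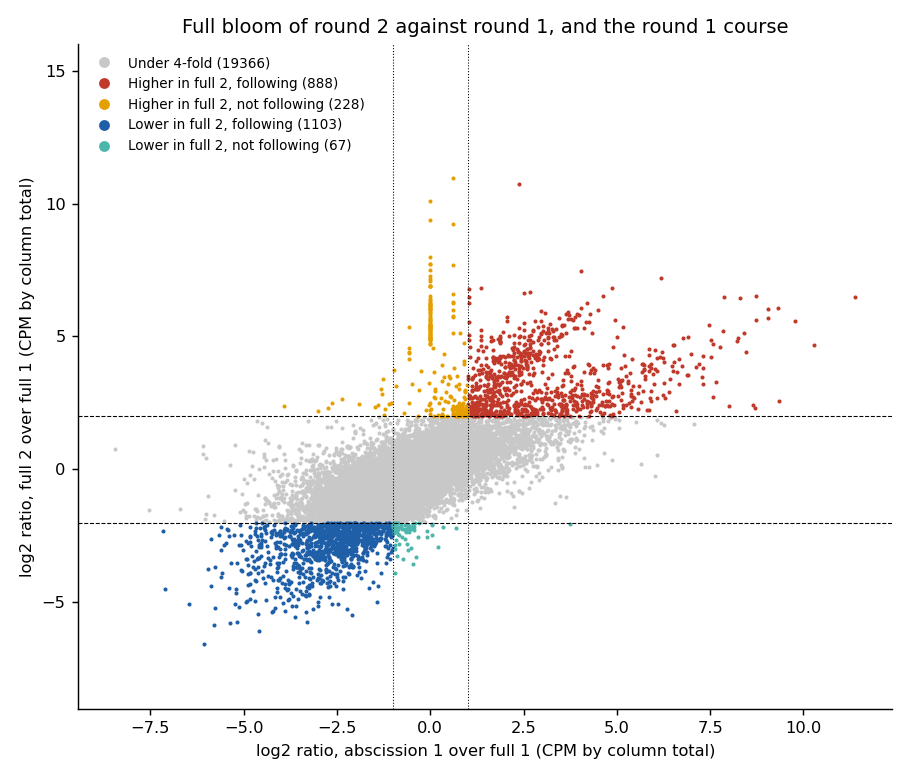
Each point is 1 of 21652 transcripts, with the log2 ratio of full 2 to full 1 on the vertical axis and the log2 ratio of abscission 1 to full 1 on the horizontal axis, both from CPM by column total. Dashed lines mark 4-fold and dotted lines 2-fold; the 888 higher and 1103 lower transcripts that followed the round 1 course lie in the upper right and lower left corners, and the 228 higher ones that did not follow include a column near 0 on the horizontal axis and 100 just short of the 2-fold line. Both axes share full 1.

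The step from late full 1 to abscission 1 shares no library with the pair of full blooms. Of the 1116 transcripts at least 4-fold higher in full 2, 645 (57.8%) were at least 2-fold higher in abscission 1 than in late full 1, against 9.62% of all transcripts compared. Only 33 (2.96%) were at least 2-fold lower there, against 19.2% of all. Of the 1170 transcripts lower in full 2, 925 (79.1%) were at least 2-fold lower in abscission 1 than in late full 1, against 19.2% of all, and 26 (2.22%) were at least 2-fold higher. With TMM these shares were 68.8% of the higher transcripts, against 15.2% of all, and 75.9% of the lower ones, against 12.0% of all. Across 19918 transcripts with at least 50 counts in each pair, the log2 ratio of full 2 to full 1 and that of abscission 1 to late full 1 correlated at 0.62 (Pearson) and 0.58 (Spearman). Transcripts are not independent replicates, and all share the 4 libraries, so this is a description of these pools.

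The 888 transcripts that were higher in full 2 and followed the course took 7.52% of all counts in full 2 (95% Wilson interval 7.51 to 7.53), against 0.926% in full 1 (0.922 to 0.930). They took 8.43% in late full 1, 22.2% in abscission 1 and 1.05% in initial 2. With TMM the 1190 transcripts of this kind took 9.81% of the counts of full 2, against 1.52% in full 1. The sums in full 2 and late full 1 were alike, but the median log2 ratio of full 2 to late full 1 was 1.88. Of the 888, 604 were at least 2-fold higher in full 2 than in late full 1. Over all 21652 transcripts compared, 3208 were, and the median was 0.07. Choosing transcripts high in full 2 pushes this ratio up, as late full 1 was not used. The median level of a transcript of this kind was 8.29 CPM in full 2, against 0.707 CPM in full 1. It was 2.59 CPM in late full 1, 6.70 CPM in abscission 1 and 1.48 CPM in initial 2. The median log2 ratio of full 2 to full 1 was 3.06, beside 2.65 for abscission 1 over full 1, 1.13 for late full 1 over full 1 and 0.49 for initial 2 over full 1. The same medians over all transcripts compared were -0.21, -0.55, -0.25 and 0.04. The rule fixes full 2 and abscission 1 above full 1 in this kind, so their shares and ratios against full 1 are descriptions only. Choosing transcripts low in full 1 also pushes up the ratios of late full 1 and initial 2 to full 1. Counts were concentrated in few transcripts, as 10 of the 888 held 48.1% of their summed level in full 2. At least 100 CPM in full 2 was reached by 91, while 500 stayed under 10 CPM.

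**Figure D2:**
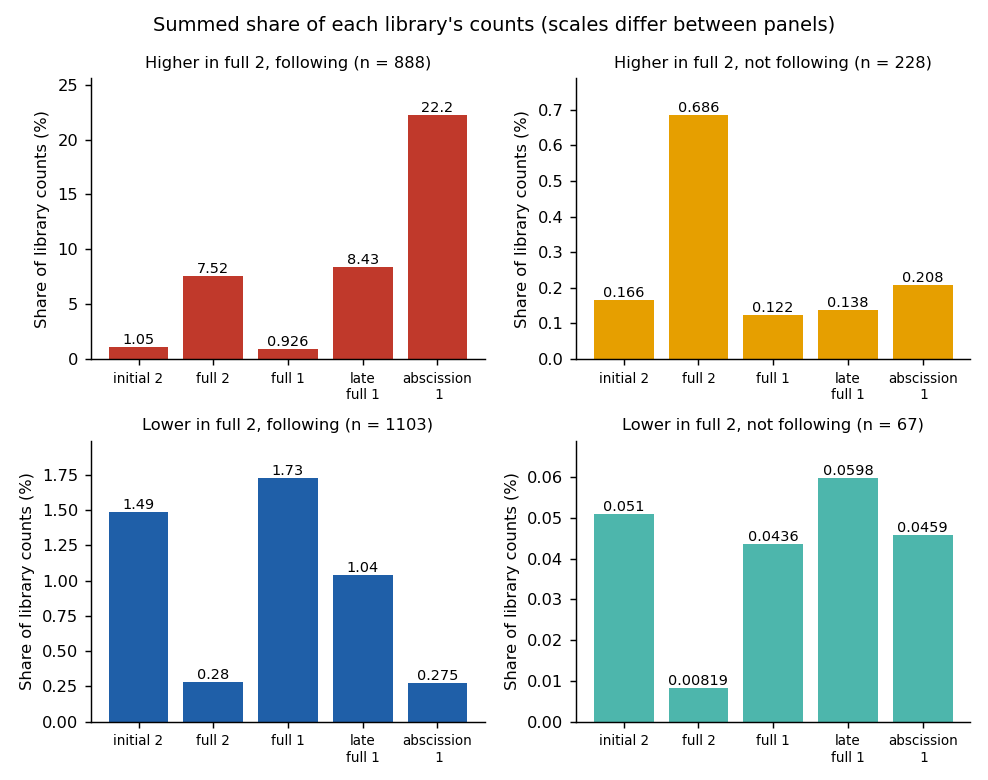
Bars give the percent of each library's counts taken by the transcripts of each kind, for initial 2 and full 2 and then full 1, late full 1 and abscission 1, with 1 pooled library per bar and a separate scale in each panel. The higher and following transcripts took 7.52% of full 2, 0.926% of full 1 and 22.2% of abscission 1, and the lower and following ones took 0.280% of full 2, 1.73% of full 1 and 0.275% of abscission 1.

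The most abundant transcript of this kind by counts, with no correction for length, was c157145_g2_i1. It had 225933 counts in full 2, against 16411 in full 1, which is 11743 CPM in full 2 and 829 CPM in full 1. Along round 1 it stood at 83.7 CPM in initial 1 (9 counts), 829 in full 1, 19545 in late full 1 and then 28743 in abscission 1, and in initial 2 at 705 CPM. Its level was low in the initial libraries and full 1 and high in full 2, late full 1 and abscission 1, with full 2 the lowest of those 3. Full 2 exceeded full 1 by 14.2-fold (95% Clopper-Pearson interval 13.9 to 14.4), or 17.2-fold with TMM. Abscission 1 was 34.7-fold above full 1 (34.1 to 35.2), or 51.4-fold with TMM. Such intervals, here and for the shares above, reflect the counting of reads alone; reads made by PCR are not independent molecules, and variation between pools is left out.

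The following transcripts did not all lie at the same point of the course. Of the 888 higher ones, 381 were at least 2-fold higher in full 2 than in abscission 1, 274 were within 2-fold of it, and 233 were at least 2-fold short of it. Over all 21652 transcripts compared, 4363 were at least 2-fold higher in full 2 than in abscission 1 and 1540 at least 2-fold lower. By column totals these 3 parts of the 888 differed in level. The 274 within 2-fold had a median of 10.7 CPM in full 2, against 1.57 CPM in full 1. The 233 short of abscission 1 had a median of 14.5 CPM in full 2, against 1.92 CPM in full 1, with 16.1 CPM in late full 1 and 71.3 CPM in abscission 1. Their high level in abscission 1 is part of what chose them. They alone took 4.56% of the counts of full 2, against 0.426% in full 1, and 20.0% in abscission 1. The 381 that went past abscission 1 had a median of 5.82 CPM in full 2, against 0.253 CPM in full 1, where the median count was 5. They had medians of 0.386 CPM in late full 1 and 1.51 CPM in abscission 1. These transcripts took 1.24% of the counts of full 2, against 0.194% in full 1. Their place above full 1 and abscission 1 is what chose them. Late full 1 was not used, but choosing transcripts high in full 2 also pushes full 2 above late full 1. With TMM the 1190 higher and following transcripts divided into 385 past abscission 1, 469 within 2-fold and 336 short of it. Their medians, in that order, were 6.58, 16.1 and 16.9 CPM in full 2, and 0.239, 2.39 and 2.20 CPM in full 1. The last 2 of these groups thus hardly differed in level in either full bloom. The 385 took 0.516% of the counts of full 2, against 0.0689% in full 1.

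The 1103 transcripts that were lower in full 2 and followed the course took 0.280% of the counts of full 2 (95% Wilson interval 0.278 to 0.283), against 1.73% in full 1 (1.722 to 1.734). They took 1.04% in late full 1, 0.275% in abscission 1 and 1.49% in initial 2. The rule fixes low levels in full 2 and abscission 1 against full 1, and it did not use late full 1 and initial 2. Choosing transcripts high in full 1 still pushes the share in full 1 above those in late full 1 and initial 2. Choosing them low in full 2 likewise pushes the share in full 2 below those. With TMM the 777 transcripts of this kind took 0.124% of the counts of full 2, against 1.02% in full 1. Their median level was 0.728 CPM in full 2, against 5.66 CPM in full 1, and 3.63 CPM in late full 1, 0.898 CPM in abscission 1 and 4.83 CPM in initial 2. The median log2 ratio of full 2 to full 1 was -2.67, beside -2.61 for abscission 1 over full 1 and -0.55 for late full 1 over full 1. Of the 1103, 763 (69.2%) had full 2 within 2-fold of abscission 1, 195 were at least 2-fold lower in full 2 than in abscission 1, and 145 were at least 2-fold higher. Over all 21652 transcripts compared, 1540 were at least 2-fold lower and 4363 at least 2-fold higher, so most lay within 2-fold there too. With TMM 480 of 777 (61.8%) lay within 2-fold. Of all compared, 2347 were then at least 2-fold lower and 2999 at least 2-fold higher. Closeness to abscission 1 was thus not particular to this kind. Most were of low level: 30 reached 100 CPM in full 1 and 755 stayed under 10 CPM there. Their 10 most abundant held 18.3% of the summed level in full 1.

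**Figure D3:**
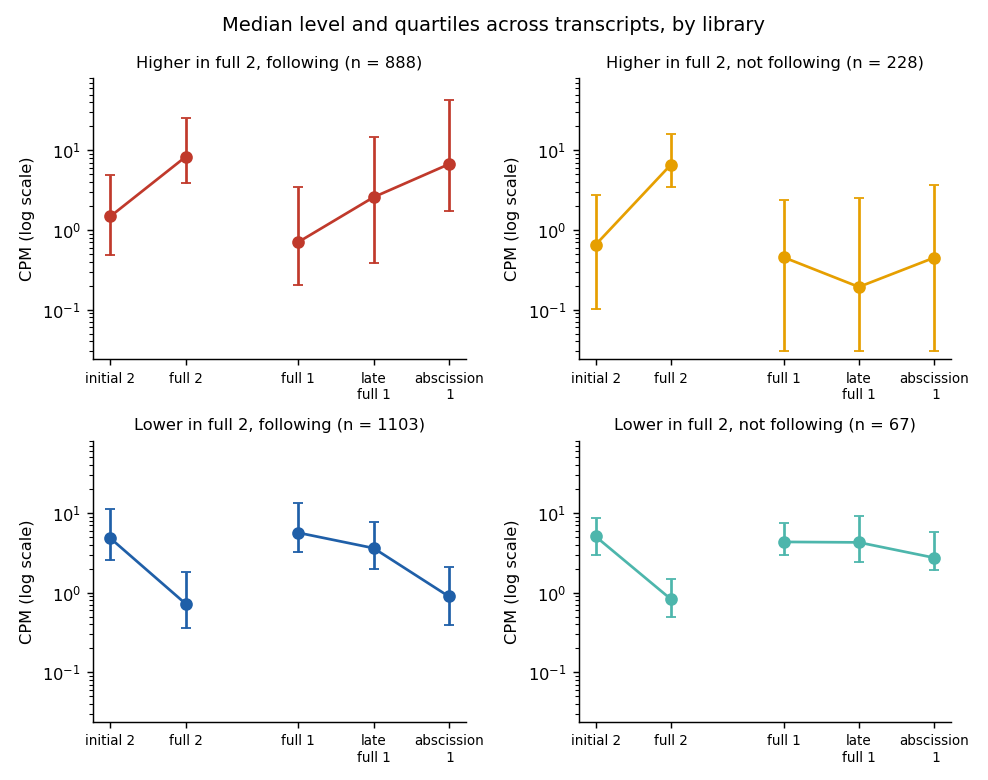
Points are the median CPM over the transcripts of each kind and bars the quartiles, on a log scale, for initial 2 and full 2 (joined) and for full 1, late full 1 and abscission 1 (joined); bars show the spread between transcripts, not an error, and values of 0 are drawn at the lower edge of the axis. The higher and following transcripts had medians of 8.29 CPM in full 2 and 0.707 CPM in full 1, and the higher ones that did not follow 6.60 CPM in full 2 and 0.455 CPM in full 1.

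In the lower and following kind, c161823_g3_i2 was the most abundant transcript in full 1 among those in that kind under both scalings. It had 830 counts in full 2, against 5997 in full 1, which is 43.1 CPM in full 2 and 303 CPM in full 1. Along round 1 it stood at 261 CPM in initial 1 (28 counts), 303 in full 1, 167 in late full 1 and then 29.9 in abscission 1, and in initial 2 at 166 CPM. Full 2 and abscission 1 were the 2 low libraries and the other 4 lay well above both. It was 7.02-fold lower in full 2 than in full 1 (95% Clopper-Pearson interval 6.53 to 7.56), or 5.78-fold with TMM. Abscission 1 was 10.1-fold below full 1 (9.27 to 11.1), or 6.83-fold with TMM.

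The 228 transcripts higher in full 2 that did not follow the course formed a small part of the library. They took 0.686% of the counts of full 2 (95% Wilson interval 0.682 to 0.689), against 0.122% in full 1 (0.121 to 0.124), and 0.138% in late full 1, 0.208% in abscission 1 and 0.166% in initial 2. The 179 transcripts of this kind with TMM took 0.372% of the counts of full 2, against 0.0681% in full 1. The median level was 6.60 CPM in full 2, against 0.455 CPM in full 1, with 0.193 CPM in late full 1, 0.449 CPM in abscission 1 and 0.652 CPM in initial 2. The rule sets full 2 above full 1 and abscission 1 in this kind, and of the libraries it did not use, initial 2 stood above full 2 in 5 transcripts and late full 1 in 0. By the same rule abscission 1 cannot be 2-fold above full 1, and it was at least 2-fold below in 15 of the 228. Many of these transcripts had few counts in round 1, where the prior count holds a ratio near 0. Late full 1 was at least 2-fold above full 1 in 16 and at least 2-fold below in 32. Over all 21652 transcripts compared these numbers were 1414 and 3340, which are similar shares. In 100 of the 228 abscission 1 was 1.5-fold to 2-fold above full 1, just short of counting as following. Full 2 was at least 2-fold above initial 2 in 209, within 2-fold in 18 and at least 2-fold below in 1. Over all 21652 transcripts compared, it was at least 2-fold above in 3122 and at least 2-fold below in 5215. Choosing transcripts high in full 2 pushes full 2 above initial 2 and late full 1, so these counts are descriptions only. The median depth was 132 counts over the pair, and 37 of the 228 had 1000 or more.

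The largest ratios held many transcripts of this kind. Of transcripts 4-fold to 8-fold higher in full 2, 431 of 551 (78.2%) followed the course, as did 213 of 235 (90.6%) of those 8-fold to 16-fold higher and 225 of 279 (80.6%) of those 16-fold to 64-fold higher. At 64-fold or more, 19 of 51 (37.3%) followed, or 27 of 63 (42.9%) with TMM. All 32 that did not follow had 0 counts in full 1, and 30 of them had at most 3 counts in each of full 1, late full 1 and abscission 1. A transcript with 0 counts in both full 1 and abscission 1 cannot be counted as following, whatever its level in full 2. These 32 had 127 to 3915 counts in full 2, and 24 had over 3 counts in initial 2. Among lower transcripts the share that followed was 92.3% of 793 at 4-fold to 8-fold, 97.7% of 256 at 8-fold to 16-fold and 119 of 119 at 16-fold to 64-fold, and only 2 were 64-fold lower or more.

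**Figure D4:**
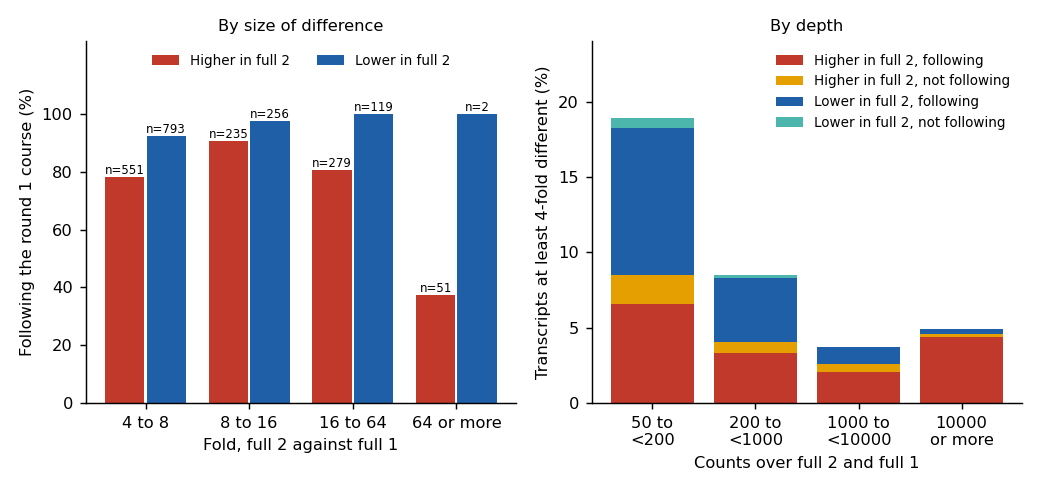
The left panel gives the percent of transcripts that followed the round 1 course by the size of the difference between full 2 and full 1, for those higher and lower in full 2, with the number of transcripts on each bar. The right panel gives the percent of transcripts at least 4-fold different by their counts over full 2 and full 1, divided by kind; the share that followed was 37.3% among the 51 transcripts at least 64-fold higher, and 18.9% of transcripts with at least 50 and under 200 counts differed at least 4-fold.

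The most abundant transcript that was higher without following under both scalings was c162187_g1_i1. It had 3915 counts (203 CPM) in full 2, against 0 counts in full 1. In the other libraries it had 120 counts in initial 2 (3.07 CPM), 1 count in abscission 1 (0.0561 CPM) and 0 in initial 1 and late full 1. The round 2 libraries thus held nearly all of its counts. Against a floor of 3 counts, which is 0.152 CPM in full 1, its level in full 2 was 1343-fold higher, or 1630-fold with TMM. The lower end of the 95% Clopper-Pearson interval for full 2 over full 1 was 1092-fold, or 1325-fold with TMM. From initial 2 to full 2 it was 66.3-fold higher (95% Clopper-Pearson interval 55.3 to 80.2), or 84.7-fold with TMM.

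**Figure D5:**
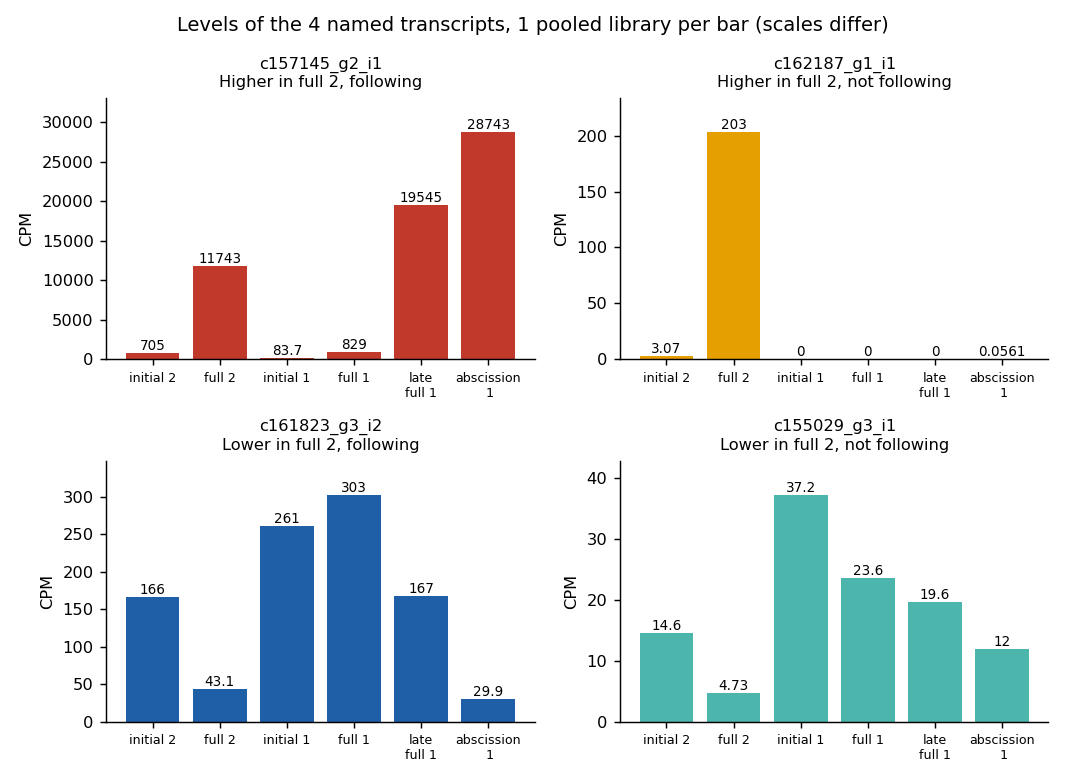
Bars give the CPM by column total of the 4 named transcripts in each library, 1 pooled library per bar, with a separate scale in each panel and round 2 left of round 1. For c157145_g2_i1 and c161823_g3_i2, full 2 lay on the side of abscission 1, as their kind requires, at 11743 and 43.1 CPM. In full 2 c162187_g1_i1 stood at 203 CPM and c155029_g3_i1 at 4.73 CPM, the lowest library of the latter.

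Presence in 1 full bloom with near absence in the other was uneven, as counted by sets chosen after their values were seen. Of the 21652 transcripts compared, 274 had at least 50 counts in full 2 with at most 3 in full 1. At least 50 in full 1 with at most 3 in full 2 were found for 105. Asking for at most 3 counts in each of full 1, late full 1 and abscission 1 left 91 of the 274. Their median was 98 counts in full 2, and 43 of them had over 3 counts in initial 2. The other 48 had at most 3 there as well, so among the deep libraries they stood out in full 2 alone. The converse, at most 3 counts in both full 2 and initial 2, left 1 of the 105, with 53 counts in full 1. More libraries had to be low on the round 1 side, so the 2 searches are not alike. Initial 2 was the deepest library, and the part of its depth in this difference was not tested. The 91 transcripts took 0.102% of the counts of full 2. With at most 3 counts in each of the 4 other deep libraries, 48 transcripts had at least 50 counts in full 2, against 24 in initial 2, 24 in late full 1, 4 in abscission 1 and 0 in full 1. The origin of the RNA behind these transcripts was not tested.

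The 67 transcripts lower in full 2 that did not follow the course took 0.00819% of the counts of full 2 (95% Wilson interval 0.00779 to 0.00860), against 0.0436% in full 1 (0.0427 to 0.0446). They took 0.0598% in late full 1, 0.0459% in abscission 1 and 0.0510% in initial 2. The 92 transcripts of this kind with TMM took 0.0107% of full 2, against 0.0725% of full 1. The median level was 0.832 CPM in full 2, against 4.34 CPM in full 1, with 4.28 CPM in late full 1, 2.75 CPM in abscission 1 and 5.09 CPM in initial 2. Most lay near the edge of the rule, as abscission 1 was 1.5-fold to 2-fold below full 1 in 42 and at least 2-fold above it in 1. They were also shallow, with a median of 101 and at most 558 counts over the pair.

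Of these, c155029_g3_i1 had the highest level in full 1. It had 91 counts in full 2, against 467 in full 1, which is 4.73 CPM in full 2 and 23.6 CPM in full 1. Its level was 37.2 CPM in initial 1 (4 counts), 23.6 in full 1, 19.6 in late full 1 and then 12.0 in abscission 1, and 14.6 CPM in initial 2. Full 2 was the lowest of the 6 libraries, and late full 1 was 1.20-fold below full 1 (95% Clopper-Pearson interval 1.06 to 1.37), or 1.04-fold with TMM (0.915 to 1.18), which includes no difference. It was 4.99-fold lower in full 2 than in full 1 (95% Clopper-Pearson interval 3.98 to 6.31), or 4.11-fold with TMM. Abscission 1 was 1.97-fold below full 1 (1.67 to 2.32), an interval that includes the 2-fold limit. With TMM abscission 1 was 1.32-fold below full 1 (1.12 to 1.56).

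Assembled transcripts can be close copies of each other, and the way shared reads were divided is not given in the sources used here. By the shared first part of their IDs, 8051 of the 21652 transcripts (37.2%) came from an assembly component with at least 1 other compared transcript. Of the 2286 transcripts at least 4-fold different, 808 (35.3%) did. In 131 components at least 2 transcripts differed, and in 9 of these components 1 was higher and 1 lower in full 2. Those 9 components held 18 of the 2286 transcripts, 5 of them among the 295 that did not follow the course. Counts summed by component gave 966 higher and 761 lower in full 2 of 17382 units, of which 80.5% of the higher and 94.0% of the lower followed the course.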

How the data were processed

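The authors deposited 1 table of estimated counts per assembled transcript, with 1 unscaled column for each of the 6 libraries; the values themselves gave the unit, with 36 to 855 decimals per column among whole numbers. RNA was extracted with TRIzol and selected with poly-T beads, per the labels' protocols; 5 replicates were pooled per stage, per the series' design text. The submitters' processing notes name CASAVA 1.7. For assembler, aligner, counting tool and strand, the tool or setting is not given in the sources used here. All columns matched a sample.

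Rounding the expected counts to whole numbers came first. CPM used column totals. TMM factors from edgeR 4.0.16 (R 4.3.3), taken over 30524 transcripts that reached 1 CPM in some library, were 0.869 for full 2 and 1.06 for full 1. DESeq2 1.42.0 size factors were an alternative. Log2 ratios used a prior count of 2, shared by library size. Each named transcript is the highest by CPM in the higher library of the pair, 1 per kind and alike under both scalings. A fold against 0 counts used a floor of 3 counts in that library. Other steps ran in Python 3.11.15 with SciPy 1.17.1, NumPy 2.4.6, pandas 2.3.3 and, for figures, matplotlib 3.10.9. The code that makes the calls was tested on simulated counts with differences planted in well-covered transcripts. Those counts held no variation between pools, so the accuracy of the calls above was not tested. The comparison, its kinds and the rules were chosen with earlier results of these data known. A list of carotenoid genes could not be applied to IDs without names.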

Additional observations from a re-analysis of the deposited data

How the results depend on the processing

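No paired analysis was possible because each group is 1 library. With 1 library per group no replicate could be left out, and the counts above are descriptions of these pools. Scaling changed the sign of the median log2 ratio of full 2 to full 1, which was 0.0653 with TMM, 0.073 with DESeq2 size factors and 0.0653 with TMM factors taken without the shallow initial 1, an alternative chosen after the data were seen. The share with the same direction of at least 2-fold from late full 1 to abscission 1, 68.7% of all transcripts called by CPM, was 71.6% with TMM and 71.2% with DESeq2 size factors.

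The numbers moved most with the minimum of counts, the fold threshold and the definition of the course. A minimum of 10 counts gave 6459 transcripts at least 4-fold different, 3143 higher (2020 following, 1123 not) and 3316 lower (2997 following, 319 not), with 60.5% the same way from late full 1 to abscission 1. A minimum of 200 gave 894, 492 higher (403 following, 89 not) and 402 lower (387 following, 15 not), with 65.4% the same way. No minimum gave 8481, 4404 higher (2428 following, 1976 not) and 4077 lower (3592 following, 485 not), with 54.2% the same way and a median log2 ratio of -0.0101. A 2-fold threshold gave 6761, 2577 higher (1558 following, 1019 not) and 4184 lower (3429 following, 755 not), with 49.5% the same way. An 8-fold threshold gave 942, 565 higher (457 following, 108 not) and 377 lower (371 following, 6 not), with 74.4% the same way. Summing by assembly component gave 761 lower, 715 of them following.

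Asking for a 4-fold course left 504 higher and 336 lower transcripts not following, and accepting any difference in the same direction left 100 and 7. With late full 1 in place of abscission 1, 486 higher transcripts followed and 630 did not, and 381 lower ones followed and 789 did not. With the step from late full 1 to abscission 1, which shares no library with the pair, 471 higher and 245 lower did not follow. When the course ended at late full 1, 43.5% of the higher and 32.6% of the lower transcripts followed. Over all 21652 transcripts compared, late full 1 was at least 2-fold above full 1 in 1414 and at least 2-fold below in 3340. That course also shares full 1 with the pair. A prior count of 0.5 and thinning the deep libraries to equal depth kept all counts within 1.5 times, the median log2 ratio within 0.1 and the share from late full 1 to abscission 1 within its 95% binomial interval. No named transcript changed direction under the 5 alternatives computed for it. Depth limits the transcripts with under 200 counts over the pair, where a 4-fold difference can rest on few counts in 1 library.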
